A study of Homo sapiens with 24 samples.

Results

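H2052 cells carrying a biotinylated miR-497-5p mimic for 72 h gave 6 libraries that are described here, 3 of pull-down RNA and 3 of RNA-seq, of 24 libraries in the series. They were chosen by their labels (mimic miR-497-5p-RE, time 72 h), and all 16896 genes with enough counts were compared between the pull-down and the RNA-seq. H2052 is an established line from a diffuse pleural mesothelioma, so every value rests on 1 cell line. The other libraries came from the scrambled, non-targeting control mimic and from a 12 h time point, again with 3 libraries for each combination of mimic, time and assay. Both mimics carried biotin at the 3′ end and were given at 20 nM with Lipofectamine RNAiMAX. The pull-down is RNA retained on streptavidin beads from a cytoplasmic extract, and the RNA-seq is the input, prepared in parallel. Not given in these sources are the meaning of the suffix RE and whether the input was taken from whole cells or from the same extract. All libraries were made from poly(A) RNA.

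A microRNA is loaded into an Argonaute protein and finds messenger RNAs mainly through its seed, the stretch near its 5′ end. Argonaute recruits TNRC6 proteins, which lead to loss of the poly(A) tail, decay and less translation of the bound transcript. miR-497-5p belongs to the miR-15/16 family, whose known targets include cyclins, cyclin-dependent kinases and other genes of the entry into S phase. A 3′ biotin on the mimic lets streptavidin beads retain the mimic together with RNA attached to it, so a transcript more abundant in the pull-down than in the input was retained more than the average transcript, by pairing or otherwise.

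The mature guide (RefSeq, GRCh38.p14, chr17:7017979-7017999, minus strand) is shown with its seed, bases 2 to 8, in capitals, because sites complementary to it are used below. The second member of the family, miR-16-5p (chr3:160404754-160404775, plus strand), is shown for comparison and has the same seed.
hsa-miR-497-5p: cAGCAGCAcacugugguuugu
hsa-miR-16-5p: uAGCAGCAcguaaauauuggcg
In a transcript, the match to the seed reads TGCTGCT (a 7mer-m8 site), and TGCTGCTA when an A follows it (an 8mer site). RefSeq held 7 mature human miRNAs with this seed, among them miR-15a-5p, miR-15b-5p, miR-195-5p, miR-424-5p and miR-6838-5p.

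Total counts were 22358295, 8262425 and 21339091 in pull-down replicates 1, 2 and 3, and 21561816 to 23597532 in the RNA-seq, so pull-down replicate 2 measures low genes least well. Over the 16896 genes, log2 values correlated at 0.975 to 0.979 within the pull-down, at 0.997 within the RNA-seq and at 0.867 to 0.875 between them (across genes, which are not independent replicates). Pull-down libraries at 72 h had a biological coefficient of variation of 0.316, and RNA-seq libraries one of 0.0279. Nothing in the labels tells whether replicates were grown separately, so each p-value covers the scatter of these libraries and no more, and that scatter may be technical. Of 15 genes tested that mark mesothelial cells, 5 were higher and 6 lower in the pull-down (beside 30.6% and 35.2% of all genes). The summed level of the list of 18 was 4790 to 4830 CPM (counts scaled to library size) in the pull-down and 2850 to 2930 in the RNA-seq, and MSLN, the mesothelin gene, was at 40.0 to 41.3 CPM in the RNA-seq. Of 35 squamous epithelial markers 14 had no count in any of the 6 libraries (summed level 73.4 to 95.4 CPM in the pull-down, 183 to 197 in the RNA-seq). Of 16 blood cell markers 6 had none (13.4 to 23.2 against 7.12 to 7.64 CPM). The part of these other cell markers in the results was not tested, and in bulk libraries fewer cells of a type and less RNA per cell cannot be told apart.

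With miR-497-5p at 72 h, 5163 genes were higher in the pull-down than in the RNA-seq (30.6% of 16896) and 5951 were lower (35.2%), 65.8% together, at an adjusted p under 0.05 in edgeR's quasi-likelihood test with Benjamini-Hochberg adjustment. The difference was at least 2-fold for 3519 (20.8%) and 4473 (26.5%) of them. With offsets for GC content and transcript length, added after seeing the data, 5899 were higher and 3550 lower, and the median was 0.223. The 3 pull-down and 3 RNA-seq values did not overlap for 73.2% of genes. The median difference over all genes was -0.16 on the log2 scale, with quartiles of -1.33 and 1.01. Below, the pull-down difference means the log2 ratio of pull-down to RNA-seq at 72 h with miR-497-5p. The value after ± is an approximate standard error, the size of the difference divided by the square root of the test's F statistic. The other contrasts are given in the same way. CPM are scaled by TMM over the 12 libraries of 72 h, and each adjusted p is from that edgeR test.

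RABL6, TOP2A, RBM25 and MALAT1 were among the genes with large positive differences in the pull-down, whereas ITGAV, MT-ND4L and FTH1 were among those with large negative ones. RABL6 (ENSG00000196642, chr9:136807943-136841187), a RAB-like GTPase gene, stood at 4026, 3601 and 4188 CPM in the pull-down and at 227, 215 and 207 CPM in the RNA-seq. Its pull-down difference was 4.19 ± 0.05, 18.2-fold (adjusted p = 2.36e-19). TOP2A (ENSG00000131747, chr17:40388525-40417896), DNA topoisomerase II alpha of dividing cells, held 2882, 2949.8 and 3423 CPM in the pull-down against 172, 187 and 187 CPM. Its pull-down difference was 4.08 ± 0.07 (adjusted p = 2.19e-18), and the lowest pull-down library lay far above the highest RNA-seq library for both genes.

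**Figure D1:**
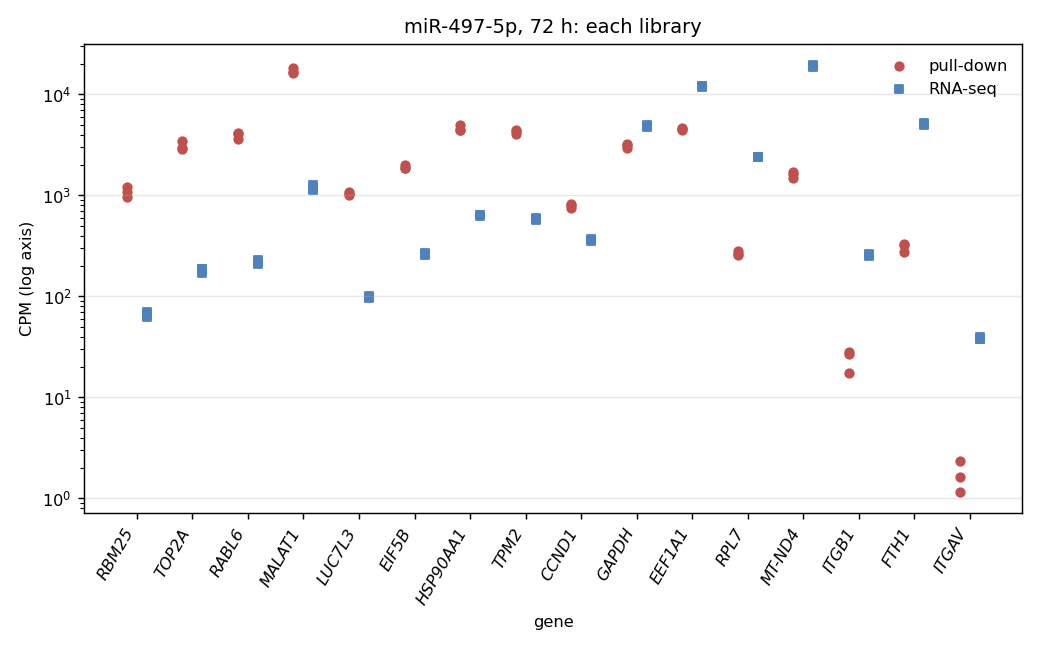
Level of 16 genes in each of the 6 libraries with miR-497-5p at 72 h, in CPM on a log axis; circles are pull-down libraries and squares RNA-seq libraries. The pull-down libraries of RABL6 sit between 3601 and 4188 CPM, above 207 to 227 CPM in RNA-seq, and those of ITGAV between 1.16 and 2.34 CPM, below 37.5 to 39.4 CPM.

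TERT, the telomerase reverse transcriptase, had 10.1, 16.9 and 3.48 CPM against 0.291, 0.0431 and 0.629 CPM, a difference of 4.90 ± 0.86 (adjusted p = 7.82e-05). ZBED6, a zinc finger gene that lies within another gene and shares 95.7% of its exon bases with it, was 5.55 ± 0.43 higher. The pseudogenes NSRP1P1 (5.66 ± 0.44) and UPF3AP2 (4.39 ± 0.33) and the copied genes NBPF26 (4.46 ± 0.15) and NBPF8 (4.25 ± 0.21) were also higher. Only uniquely placed reads were counted, so reads of such near-identical copies may be misassigned.

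FANCA, a Fanconi anaemia gene of DNA crosslink repair, rested on 1 library. It was at 4.99, 181 and 4.01 CPM in the pull-down and at 2.58, 3.23 and 3.74 CPM in the RNA-seq. All 3 pull-down values exceeded the RNA-seq values, but replicate 2 alone carried the size: the pull-down difference of 4.24 ± 1.42 (adjusted p = 0.0266) became 0.48 (adjusted p = 0.16) without it. The call was also lost with limma voom (adjusted p = 0.268) and without any 1 of the RNA-seq libraries (adjusted p = 0.0766 to 0.0864).

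At the other end, ITGAV (ENSG00000138448, chr2:186590010-186680901), the integrin alpha V subunit, fell from 37.5, 39.4 and 37.7 CPM in the RNA-seq to 2.34, 1.16 and 1.63 CPM in the pull-down. Its difference was -4.39 ± 0.18 (adjusted p = 5.12e-13). FTH1, the ferritin heavy chain that stores iron, was at 328, 321 and 275 CPM in the pull-down and at 5177, 5091 and 5005 CPM in the RNA-seq, a difference of -4.05 ± 0.06 (adjusted p = 6.47e-19). PCBP1, an RNA-binding protein gene without introns, was lower by -4.03 ± 0.19, and 73.2% of its exon bases overlap another gene, as do 63.2% of those of FTH1. Use of strand in the counting is not stated, so reads of overlapping or antisense genes cannot be told apart. Among other genes with low ratios were HDHD2 (-4.72 ± 0.50, 28.2% of exon bases overlapped), the cyclophilin pseudogene PPIAP22 (-4.18 ± 0.35), ATP6V0C, a subunit of the lysosomal proton pump (-4.16 ± 0.25, 60.9% overlapped), YEATS4, a reader of acetylated histones (-4.02 ± 0.37), and ZBTB26 (-3.96 ± 0.45).

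Most of these differences were present with the scrambled mimic too. In the control, 5016 genes were higher (29.7%) and 5757 lower (34.1%), 63.8% together, in the pull-down than in RNA-seq at 72 h. The 2 comparisons share no library. Genes called with the same sign in both numbered 9306, which is 83.7% of the calls with miR-497-5p and 86.4% of those with the control, while 96 genes were called with opposite signs. Across genes the 2 sets of differences correlated at 0.766, and at 0.951 over the 10040 genes averaging 5 CPM or more. With miR-497-5p at 12 h the correlation was 0.427 over all genes and 0.626 over those 10040.

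The contrast that separates the mimics is the miR-497-5p pull-down difference minus the control pull-down difference, called the mimic difference below. It was positive for 1260 genes (7.46%) and negative for 1185 (7.01%) at an adjusted p under 0.05, with a median of 0.00217, and called for 14.5% in either direction. At least 2-fold differences numbered 174 (1.03%) and 258 (1.53%). Library-total scaling moved the median mimic difference of all genes to 0.136 and that of the pull-down difference to -0.408, and 2085 mimic differences were then positive and 747 negative. For each mimic a range of differences ran from the lowest pull-down minus the highest RNA-seq library to the highest pull-down minus the lowest. The ranges of the 2 mimics did not overlap for 19.7% of genes. A mimic difference can come from the pull-down, from the input, or from both. The levels of all 4 groups are given for only some of the genes that follow, and for the rest this is not shown.

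**Figure D2:**
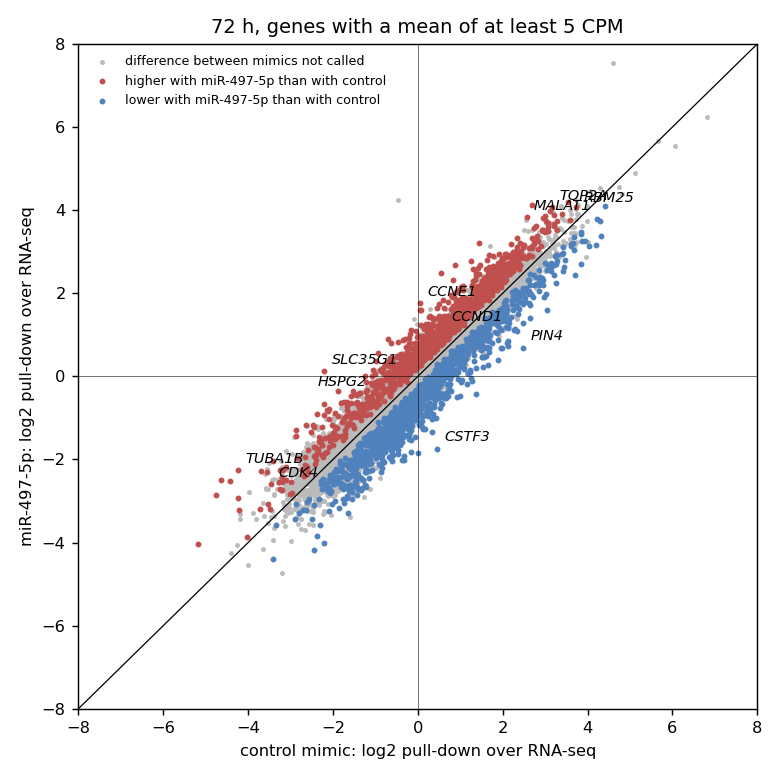
Log2 pull-down over RNA-seq at 72 h with miR-497-5p (vertical axis) against the same with the control mimic (horizontal axis), 1 point for each of the 10040 genes averaging 5 CPM or more. Red and blue points are called higher and lower with miR-497-5p than with the control; most genes lie along the diagonal, with CCNE1, SLC35G1 and HSPG2 above it and CSTF3 and PIN4 below it.

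Published targets of the seed family had no steady direction in the pull-down, and their mimic difference was more often positive than negative. Of 39 tested, 14 were higher and 14 lower in the pull-down with miR-497-5p (beside 30.6% and 35.2% of all genes), and the median was -0.362 beside -0.164 for all genes. The control median of the list was -0.559. The balance moved with the setting: 16 were higher and 10 lower with a GC offset (median 0.0159), 19 and 10 with GC and length offsets (0.244), and 11 and 19 under library-total scaling (-0.6). The median of all genes moved as well, to 0.0113, 0.223 and -0.408 in the same order. The mimic difference was positive for 11 of 39 (beside 7.46% of all genes) and negative for 3 (beside 7.01%), with a median of 0.292. CCND1, CCNE1, CDK4, CDK6, CDC25A, E2F3, FGFR1, HMGA1, SMURF2, ARL2 and FASN were the 11, and CHEK1, MAP2K1 and CAPRIN1 the 3. The list was compiled with earlier results of these data known, and the call of CAPRIN1 is lost under library-total scaling (adjusted p = 0.0925) and with an offset for GC content (adjusted p = 0.135).

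The 8mer sites for the seed in the 3′ UTRs of CCND1, CCNE1, E2F3 and CDC25A are shown with the site in capitals (GENCODE release 44, GRCh38, transcript strand, 5′ to 3′).
CCND1 8mer, chr11:69653304-69653333, plus strand: ttcacattgttTGCTGCTAttggaggatca
CCNE1 8mer, chr19:29824013-29824042, plus strand: cgtgctcccgaTGCTGCTAtggaaggtgct
CCNE1 8mer, chr19:29824251-29824280, plus strand: tgttttgtaagTGCTGCTAtatctatccat
E2F3 8mer, chr6:20492910-20492939, plus strand: taccattgagtTGCTGCTAttaaagctcac
CDC25A 8mer, chr3:48158253-48158282, minus strand: ggtactggggcTGCTGCTAtttaagccaag
CCNE1 thus holds 2 8mer sites, and CDC25A holds a further 7mer-m8 site that is not shown. Sites of other targets are not shown either: CDK6 holds 2 7mer-m8 sites, CDK4 1 7mer-m8 site and ARL2 2 of each kind. CAPRIN1, with a negative mimic difference, holds 1 of each kind. A match is a description of the sequence, not evidence of use.

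CCND1 (ENSG00000110092, chr11:69641156-69654474), cyclin D1, activates CDK4 and CDK6 in G1. It was at 816, 758 and 808 CPM in the pull-down and 366, 359 and 350.4 CPM in the RNA-seq with miR-497-5p. With the control it was at 532, 533 and 547 CPM in the pull-down and 355, 349.7 and 349.9 CPM in the RNA-seq. Its input values overlapped between the mimics, whereas its pull-down values with miR-497-5p all exceeded those with the control. The pull-down difference was 1.15 ± 0.04 (adjusted p = 1.17e-14) and the mimic difference 0.54 ± 0.05 (adjusted p = 1.25e-06).

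CCNE1 (ENSG00000105173, chr19:29811991-29824312), cyclin E1, the partner of CDK2 at the start of S phase, had a larger mimic difference. Its values with miR-497-5p were 21, 22.4 and 23.2 CPM in the pull-down and 5.95, 6.72 and 7 CPM in the RNA-seq. Control libraries held 14.3, 17.4 and 19.9 CPM in the pull-down and 16.3, 16.4 and 16.8 CPM in the RNA-seq. With miR-497-5p all input values lay below and all pull-down values above those of the control. The pull-down difference was 1.76 ± 0.15 and the mimic difference 1.70 ± 0.20 (adjusted p = 1.53e-05). CCNE1, CDK6 and CDC25A were named after their values were seen.

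E2F3, a transcription factor of S phase genes, was at 70.4, 79.6 and 83.1 CPM in the pull-down and 18.1, 18.7 and 14.8 CPM in the RNA-seq with miR-497-5p. In the control it had 30.7, 21.8 and 31.5 CPM against 12.5, 14.1 and 13.3 CPM. Both its pull-down and its input values lay above those of the control, the pull-down by more. The pull-down difference was 2.18 ± 0.14 and the mimic difference 1.11 ± 0.19 (adjusted p = 0.000617). For CDK6, the kinase bound by D cyclins, the pull-down held 35.6, 39.7 and 40.7 CPM with miR-497-5p and 39.1, 33.6 and 36.2 CPM with the control, and these overlapped. The RNA-seq of CDK6 held 31.4, 31.4 and 32.3 CPM against 60.2, 64 and 61 CPM in the control, so its mimic difference of 1.05 ± 0.12 (adjusted p = 8.33e-06) came with a lower input. The pull-down difference of CDK6 itself was small, 0.28 ± 0.08 (adjusted p = 0.00724), and was 0.04 (adjusted p = 0.709) under library-total scaling.

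CDC25A, the phosphatase that activates CDK2, had 18.8, 15.3 and 11.1 CPM in the pull-down and 6.65, 6.68 and 6.61 CPM in the RNA-seq with miR-497-5p. The control's pull-down held 20.7, 21.8 and 18.8 CPM and its RNA-seq 17, 18.5 and 19 CPM. The input values of CDC25A lay far below those of the control and its pull-down values met at 18.8 CPM, and the mimic difference was 1.01 ± 0.23 (adjusted p = 0.00695). CDK4, unlike CDC25A, was depleted in the pull-down. It was at 2.89, 5.54 and 3.43 CPM in the pull-down and 23, 20.1 and 23.1 CPM in the RNA-seq, a pull-down difference of -2.59 ± 0.18 (adjusted p = 6.62e-10). The control had 9.48, 6.59 and 8.9 CPM against 88.9, 93.8 and 88.9 CPM, so both arms of CDK4 lay below the control's with miR-497-5p. Its mimic difference was 0.86 ± 0.24 (adjusted p = 0.0217), lost with limma voom (adjusted p = 0.175) and without any 1 of 3 libraries (adjusted p = 0.0501 to 0.0567), and 44.2% of its exon bases overlap another gene.

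**Figure D3:**
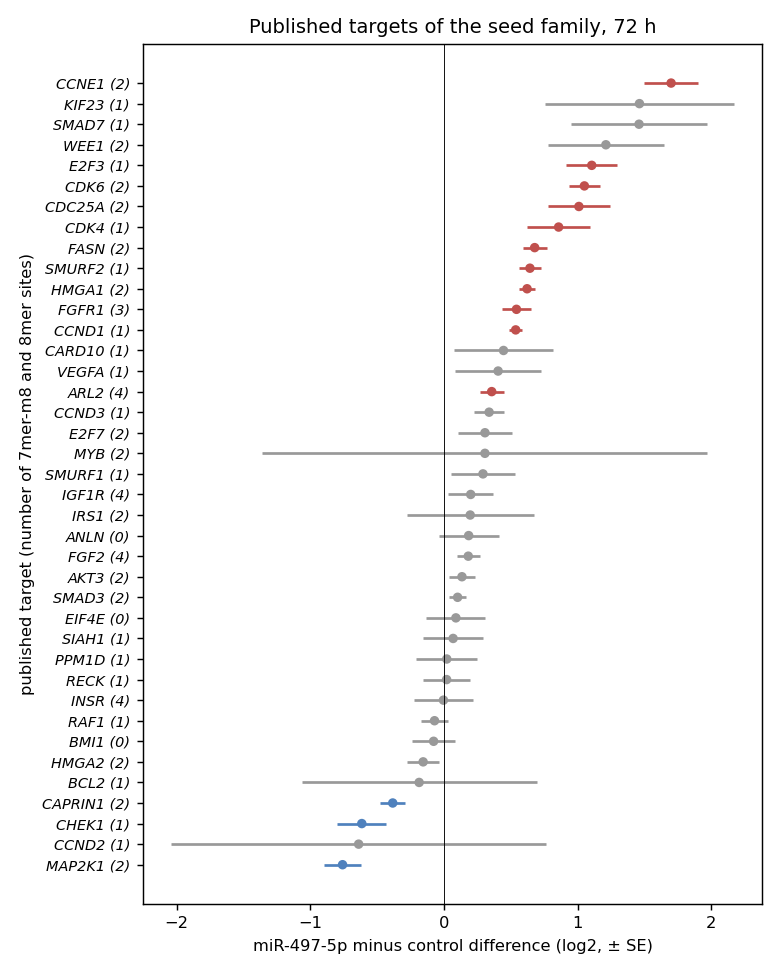
Mimic difference (log2, point) with its approximate standard error from the F statistic (bar) for the 39 published targets of the seed family. The number of 7mer-m8 and 8mer sites in the 3′ UTR is in parentheses. Red targets are called positive, blue negative and grey not called; CCNE1 is at 1.70 and MAP2K1 at -0.76.

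The 6 genes that the series names in its title and design were CCND1 and CDK4, given above, and WEE1, PKMYT1, VEGFA and GAPDH. WEE1, a kinase that holds back CDK1 and CDK2, was at 7.93, 2.06 and 4.75 CPM in the pull-down and 8.03, 8.96 and 6.69 CPM in the RNA-seq. These overlapped, and the pull-down difference of -0.61 ± 0.31 did not pass (adjusted p = 0.0946), nor did the mimic difference of 1.21 ± 0.43 (adjusted p = 0.0744). With GC and length offsets the pull-down difference of WEE1 was 0.78 and passed (adjusted p = 0.0422). PKMYT1, the membrane-bound kinase of the same family, had 1.35, 3.86 and 2.37 CPM against 2.66, 2.02 and 2.4 CPM, a difference of -0.01 ± 0.32 (adjusted p = 0.98). VEGFA, the angiogenic growth factor, had 20.6, 32.2 and 12.7 CPM against 15.6, 16.6 and 17.6 CPM, 0.36 ± 0.23 (adjusted p = 0.186). GAPDH, the glycolytic enzyme often taken as a reference, was lower in the pull-down by -0.64 ± 0.04 (adjusted p = 2.58e-11) and had a mimic difference of -0.26 ± 0.05 (adjusted p = 0.00133). Of the 6 genes, 2 had a called positive mimic difference. The count was 3 with library totals, no low-count filter, a GC offset or DESeq2's Wald test, and 1 without control RNA-seq replicate 2.

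Other targets and effectors moved in parts. ARL2, a GTPase needed for tubulin folding with 4 sites, was at 95, 79.7 and 87.6 CPM in the pull-down and 28.3, 33 and 29.9 CPM in the RNA-seq. The control had 286 to 300.1 CPM against 126 to 130.4 CPM, so ARL2 lay far below the control in both arms with miR-497-5p. Its pull-down difference was 1.53 ± 0.07 and its mimic difference 0.36 ± 0.09 (adjusted p = 0.0128; 0.0563 without RNA-seq replicate 1 with miR-497-5p). BMI1, a Polycomb gene, was lower by -2.85 ± 0.12 with a mimic difference of -0.08 ± 0.16 (adjusted p = 0.83). The 17 genes that process microRNAs or act with Argonaute had 7 higher and 5 lower in the pull-down (beside 30.6% and 35.2% of all genes), and a mimic difference that was positive for 5 and negative for 1 (beside 7.46% and 7.01%). Their median pull-down difference of 0.133 turned to -0.114 under library-total scaling, where the median of all genes moved alike, from -0.164 to -0.408.

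TNRC6A, TNRC6B and TNRC6C, the scaffold proteins that Argonaute recruits, were all higher in the pull-down, by 2.34 ± 0.06, 1.98 ± 0.13 and 2.44 ± 0.14. TNRC6B, with 5 sites, was at 57.3, 52.2 and 42.4 CPM against 11.7, 13.6 and 13.2 CPM, beside 26.1 to 31.1 and 11.5 to 12.4 CPM in the control. Its mimic difference was 0.68 ± 0.17 (adjusted p = 0.013), lost with a length offset (adjusted p = 0.051), that of TNRC6A 0.35 ± 0.09 (adjusted p = 0.00906) and that of TNRC6C 0.12 ± 0.19 (adjusted p = 0.77). The 8mer of TNRC6B lies at chr22:40325177-40325206 (plus strand).
TNRC6B 8mer: cctctgtaactTGCTGCTAttgaggacaag
DDX6, a helicase of translational repression, was lower by -1.21 ± 0.08, with a mimic difference of -0.59 ± 0.11 (adjusted p = 0.00126). Its pull-down difference was 0.03 with offsets for GC content and length.

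The largest positive mimic differences belonged to SLC35G1, HSPG2, MAFK, SYNC, TUBA1B and PKD1P6. SLC35G1, a membrane transporter gene, was at 7.08, 6.82 and 10.6 CPM in the pull-down with miR-497-5p and at 2.97, 0.518 and 1.32 CPM with the control. Its RNA-seq held 7.08 to 8.28 and 6.76 to 7.69 CPM, so the inputs overlapped and the pull-down values did not, with a mimic difference of 2.33 ± 0.54 (adjusted p = 0.00676). HSPG2, perlecan of basement membranes, had 4.59, 2.06 and 4.38 CPM in the pull-down against 3.97, 3.81 and 3.2 CPM in the control, which overlapped. Its input was 4.74 to 5.53 against 20.4 to 21.9 CPM, and its mimic difference was 2.12 ± 0.32 (adjusted p = 0.000195). SLC35G1 and HSPG2 each have an 8mer site, shown here (SLC35G1 at chr10:93901927-93901956, plus strand, and HSPG2 at chr1:21823183-21823212, minus strand).
SLC35G1 8mer: acaattgataaTGCTGCTAtaattagtatt
HSPG2 8mer: atgccacgcttTGCTGCTAccgccctgggc
Of the others, MAFK has 2 7mer-m8 sites, SYNC and TUBA1B have no 7mer-m8 or 8mer site, and no 3′ UTR was searched for the pseudogene PKD1P6. MAFK, a small MAF transcription factor, had a mimic difference of 2.12 ± 0.43. Its pull-down held 1.42 to 3.14 CPM against 1.04 to 2.2 CPM in the control, and its input 4.65 to 5.78 against 14.2 to 15.3 CPM. TUBA1B, an alpha tubulin with close copies, was at 1.99 ± 0.22, with an input of 41.9 to 43.8 CPM against 206 to 209.7 CPM in the control. SYNC, a filament protein, was at 2.12 ± 0.65 (adjusted p = 0.0371), and this call was lost when any of 8 single libraries was left out. Its pull-down levels were low, 1.03 to 2.64 CPM against 0 to 0.999 CPM in the control, with inputs of 10.1 to 11.8 and 13.7 to 14.2 CPM.

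The largest negative mimic differences belonged to CSTF3, ZNF597, MRPS18C, YEATS4, ACOT13 and PIN4. CSTF3, a subunit of the cleavage stimulation factor in polyadenylation, was at 7.53, 6.31 and 7.38 CPM in the pull-down with miR-497-5p and at 31.6, 25.1 and 29.3 CPM with the control. Its input held 23.7 to 24.2 and 20.7 to 21.4 CPM, so the pull-down values differed far more than the inputs, with a mimic difference of -2.20 ± 0.17 (adjusted p = 1.15e-07). PIN4, a parvulin prolyl isomerase, was at 72.1, 59.2 and 64.3 CPM in the pull-down against 194, 203 and 198 CPM in the control, with inputs of 39.6 to 41.4 and 33.8 to 36.4 CPM. Its mimic difference was -1.80 ± 0.10 (adjusted p = 1.01e-09). MRPS18C, of the mitochondrial ribosome, was at -1.85 ± 0.35, ACOT13, a mitochondrial thioesterase, at -1.81 ± 0.22, ZNF597 at -2.17 ± 0.39 and YEATS4 at -1.82 ± 0.48. The last 2 were lost with limma voom (adjusted p = 0.0601 and 0.0649).

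Genes with seed sites had a slightly more positive mimic difference than genes without. The median mimic difference was -0.0267 over 6983 genes lacking even a 6mer site, 0.0400 over 3475 holding a 7mer-m8 or 8mer, 0.0517 over 680 holding an 8mer and 0.178 over 47 holding at least 2 8mers. Called positive were 541 (7.75%), 369 (10.6%), 75 (11%) and 8 (17%) genes of these groups. Called negative were 672 (9.62%), 239 (6.88%), 52 (7.65%) and 2 (4.26%). Of all 13301 genes with a 3′ UTR, 8.95% were called positive and 8.27% negative. With 3 or more sites (327 genes) the median was 0.0831. When genes were cut into 4 equal groups by GC content, the median with a 7mer-m8 or 8mer exceeded the median without a 6mer in each, at -0.0611 against -0.230 in the lowest group and 0.210 against 0.156 in the highest. It did not among the shortest of 4 equal groups by 3′ UTR length (-0.00784 against 0.00884). The median pull-down difference was -0.134 with such a site and -0.334 without, beside -0.141 and -0.270 with the control mimic, so most of that gap was shared with the control. Genes are not independent replicates, and these medians are a description.

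The pull-down difference moved with base composition under both mimics. In 5 equal groups of genes ordered by exonic GC content, the median pull-down difference was -1.26, -0.907, -0.341, 0.315 and 1.12. The same groups ran from -1.07 to 0.952 with the control mimic and from -0.309 to 0.459 with miR-497-5p at 12 h. The mimic difference ran from -0.156 to 0.177. Across 16739 genes the rank correlation of the pull-down difference with GC content was 0.474, and with length over all 16896 it was -0.0307. In the lowest GC group 13.4% of genes were higher in the pull-down and 60.2% lower, and in the highest 61.7% and 8.3%.

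**Figure D4:**
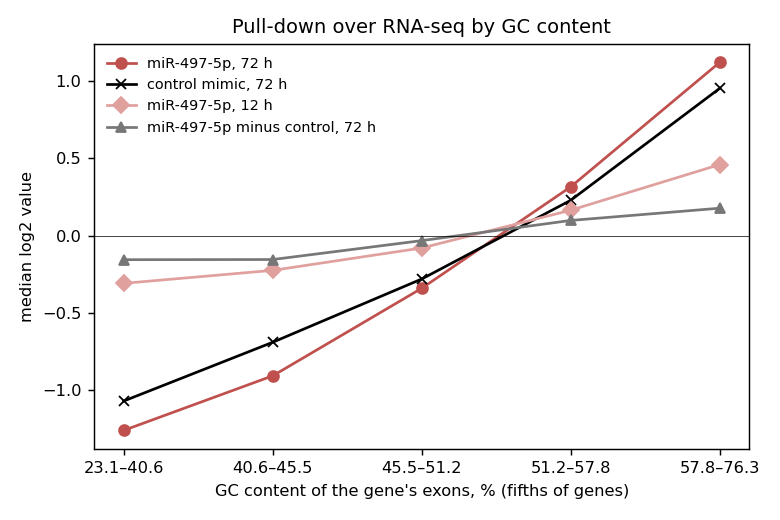
Median log2 pull-down over RNA-seq in 5 equal groups of genes by exonic GC content, for miR-497-5p at 72 h (circles), the control mimic at 72 h (crosses) and miR-497-5p at 12 h (diamonds), and the mimic difference (triangles). The miR-497-5p medians at 72 h climb from -1.26 to 1.12, more steeply than those at 12 h.

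Messages of the mitochondrial genome, translated inside the organelle, were depleted. All 13 were lower in the pull-down (beside 35.2% of all genes), from -4.25 for MT-ND4L to -1.36 for MT-ND6, with a median of -2.80, and all 13 stayed lower under every scaling and offset. MT-ND4, a complex I subunit, was at 1615, 1685 and 1494 CPM against 18781, 19108 and 19394 CPM, a difference of -3.58 ± 0.04. MT-CO1, of cytochrome oxidase, was at 3814 to 3897 CPM against 20757 to 21602 CPM (-2.46 ± 0.04). Mitochondrial genes took 1.16% to 1.25% of pull-down counts and 8.51% to 8.85% of RNA-seq counts. The control was alike, with a median of -2.76. The mimic difference was negative for 8 of 13 and positive for 2 (beside 7.01% and 7.46% of all genes). These became 3 and 0 with limma voom, and 5 and 4 with GC and length offsets. MT-ND1 had a mimic difference of -0.45 ± 0.04 (adjusted p = 5.26e-07). That of MT-ND4, -0.24 ± 0.05, was 0.01 with GC and length offsets.

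Cytosolic ribosomal protein messages, short and heavily translated, were mostly lower and more so than with the control. Of 79, 54 were lower and 20 higher (beside 35.2% and 30.6% of all genes), with a median of -0.557 beside -0.125 in the control. The mimic difference was negative for 57 and positive for 9 (beside 7.01% and 7.46% of all genes). RPL12, of the large subunit, was at 1355, 1368 and 1382 CPM in the pull-down and 5470.3, 5459.6 and 5413 CPM in the RNA-seq. The control held 1546 to 1567 and 4044 to 4069.7 CPM, so the pull-down of RPL12 was lower and its input higher with miR-497-5p. Its pull-down difference was -1.99 ± 0.02 and its mimic difference -0.61 ± 0.03 (adjusted p = 9.09e-10). RPS13 (-2.63 ± 0.03) and RPL26 (-2.95 ± 0.04) had mimic differences of -0.48 ± 0.04 and -0.39 ± 0.05. RPL7 (-3.18 ± 0.04) had one of 0.30 ± 0.05, against the direction of the list. At the other extreme RPL18 was at 1.83. Many of these genes have processed pseudogenes, so unique counting may misstate them.

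Nuclear genes of the respiratory chain split by member. Of 76, 28 were higher and 43 lower, beside 30.6% and 35.2% of all genes, with a median of -0.427. With a GC offset 36 were higher and 27 lower (median 0.112), beside 5025 and 4527 of all 16896 genes (median 0.0113). The control median was 0.251. The mimic difference was negative for 39 and positive for 5 (beside 7.01% and 7.46% of all genes). ATP5F1D, the delta subunit of ATP synthase, was at 975, 981 and 1028 CPM against 153, 146 and 149 CPM, 2.74 ± 0.04. In the control it was at 1397 to 1433 against 172 to 179 CPM, and the mimic difference was -0.26 ± 0.05 (adjusted p = 0.00121; 0.068 under library-total scaling). NDUFA3, a complex I subunit, was higher by 2.54 ± 0.06 with a mimic difference of -0.88 ± 0.08 (adjusted p = 8.81e-07), and ATP5ME by 2.20 ± 0.04 with -0.67 ± 0.05, although 61.3% of the exon bases of ATP5ME overlap another gene. NDUFS4, at -2.76, was the lowest of the list.

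Translation factors lay on both sides. Of 37, 18 were higher and 15 lower (beside 30.6% and 35.2% of all genes), with a median of 0.190 beside -0.164 for all genes. Under library-total scaling these medians were -0.0549 and -0.408. EIF5B, which joins the ribosomal subunits, was at 1866, 1887 and 1979 CPM against 257, 269 and 265 CPM, 2.86 ± 0.04, with a mimic difference of 0.05 ± 0.05 (adjusted p = 0.591). EIF2S2, a subunit of eIF2, was at 3062, 3065 and 3319.8 CPM against 453, 479 and 457 CPM, 2.77 ± 0.04. Its mimic difference was -0.51 ± 0.06 (adjusted p = 7.61e-06). The elongation factor EEF1A1 was lower by -1.39 ± 0.02, and TPT1 by -1.85 ± 0.03. PABPC1, the cytoplasmic poly(A)-binding protein, named after its values were seen, was at 13505, 13215 and 14707 CPM against 5312, 5543 and 5257 CPM (1.36 ± 0.04).

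Splicing genes were split. Of 28 whose transcripts are often kept in the nucleus with introns, 19 were lower and 9 higher (beside 35.2% and 30.6% of all genes), with a median of -1.21 (-1.14 in the control). With GC and length offsets 11 were lower and 11 higher (median -0.296), beside 3550 and 5899 of all 16896 genes (median 0.223). RBM25, LUC7L3, SRSF11 and PNISR, which encode splicing proteins rich in arginine and serine or associated with them, were far above the rest. RBM25 was at 1071, 959 and 1198 CPM against 62.1, 69.8 and 66.6 CPM (4.02 ± 0.10). LUC7L3 was at 1080.2, 1009.9 and 1025 CPM against 99.1, 100.2 and 96.4 CPM (3.40 ± 0.05), and SRSF11 at 818, 808 and 986 CPM against 77.7, 88.9 and 90.3 CPM (3.35 ± 0.08). The SR protein genes SRSF2, SRSF6 and SRSF7 lay at -2.44, -2.37 and -2.19 instead, and TIA1 at -2.75. RBM25 and LUC7L3 had no called mimic difference (adjusted p = 0.16 and 0.118), PNISR had 0.76 ± 0.11 (adjusted p = 0.000115), and SRSF11 had -0.34 ± 0.10 (adjusted p = 0.0314), which was lost with a GC offset (adjusted p = 0.252) and without any 1 of 8 libraries (adjusted p = 0.0554 to 0.0928).

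Long noncoding RNAs differed by gene. MALAT1 (chr11:65497640-65508073), an abundant nuclear RNA of splicing speckles, was at 16405, 16806 and 18280.1 CPM in the pull-down against 1141, 1263 and 1187 CPM, 3.84 ± 0.05 (adjusted p = 4.71e-19). In the control its pull-down held 6657, 6051 and 5793 CPM with an input of 1028 to 1058 CPM, so its pull-down libraries with miR-497-5p all exceeded those with the control, with a mimic difference of 1.27 ± 0.07 (adjusted p = 1.01e-09). An annotated antisense RNA covers 77.8% of its exon bases. MEG3 was higher by 1.85 ± 0.07, whereas NEAT1, the scaffold of paraspeckles, was lower by -0.88 ± 0.05 (-0.01 with GC and length offsets) and DLEU2 by -2.32 ± 0.24. Of 12 mostly nuclear RNAs 3 were higher and 3 lower (beside 30.6% and 35.2% of all genes; median -0.505), and 6 and 2 with GC and length offsets (median 0.298). Of 19 snoRNA hosts and cytoplasmic RNAs 14 were lower and 3 higher, with a median of -0.938, and 9 and 6 with GC and length offsets (median -0.128). Under these offsets 5899 of all 16896 genes were higher and 3550 lower, with a median of 0.223. SNHG29, which hosts snoRNAs, was at 86.4, 85.6 and 79 CPM against 704, 699 and 698 CPM (-3.07 ± 0.05), ZFAS1 was lower by -1.66 ± 0.05 and NORAD, which binds Pumilio proteins, by -1.28 ± 0.04.

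**Figure D5:**
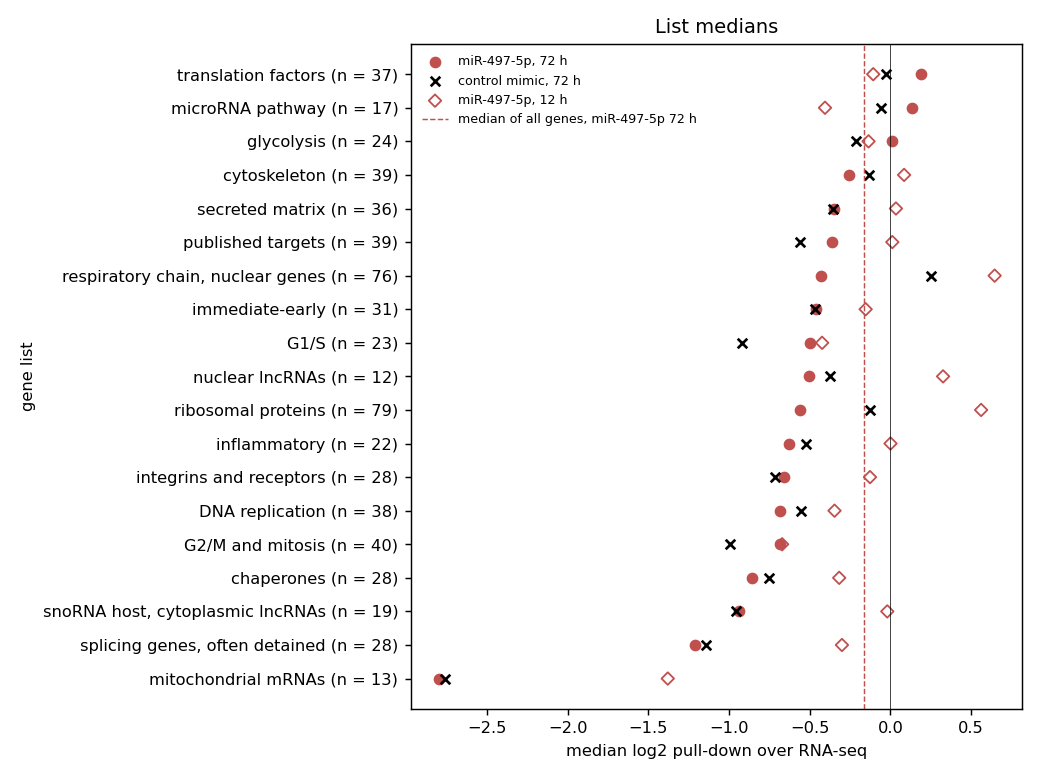
Median log2 pull-down over RNA-seq of 19 gene lists with miR-497-5p at 72 h (filled circles), the control mimic at 72 h (crosses) and miR-497-5p at 12 h (open diamonds); the dashed line is the median of all genes, -0.164. Mitochondrial messages lie lowest at -2.80, and ribosomal protein and respiratory chain genes lie below their control values.

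Messages of membrane and secreted proteins were mixed. Of 28 integrin and receptor genes 13 were lower and 10 higher (beside 35.2% and 30.6% of all genes), with a median of -0.662. With GC and length offsets 7 were lower and 10 higher (median 0.0394), beside 3550 and 5899 of all 16896 genes (median 0.223). ITGB1, the shared integrin beta 1 subunit, was at 27.9, 26.8 and 17.3 CPM against 249, 259 and 265 CPM (-3.44 ± 0.12), and the hyaluronan receptor CD44 was lower by -1.49 ± 0.05. ITGA3 (1.09 ± 0.05) and ITGB4 (1.88), by contrast, were higher. Of 36 matrix genes 16 were lower and 11 higher (median -0.351). LOX, which crosslinks collagen, was at 53.9, 46.9 and 49.5 CPM against 483, 489 and 508 CPM (-3.29 ± 0.08), and fibronectin FN1 was lower by -2.58 ± 0.10. COL6A2, a collagen VI chain, was higher by 2.38 ± 0.05. The interleukin IL1B (-2.68 ± 0.09) and the chemokines CXCL8 (-2.60 ± 0.15) and CXCL1 (-2.17 ± 0.14) were lower, and IL32 was higher (1.34 ± 0.06), in a list of 22 with 12 lower and 6 higher. Among 31 immediate-early genes 15 were lower and 11 higher, with CCN1 at -1.79 ± 0.07 and PPP1R15A and FOSL1 at 1.49 ± 0.04 and 1.33 ± 0.03.

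Cell cycle genes lay on both sides, beside 35.2% lower and 30.6% higher of all genes. With GC and length offsets 3550 of all 16896 genes were lower and 5899 higher, with a median of 0.223. Of 23 genes of G1 and S phase entry 11 were lower and 8 higher (median -0.499, control -0.919). Their mimic difference was positive for 7 (beside 7.46% of all genes) and negative for 1, RB1 (beside 7.01%). The retinoblastoma gene RB1 was at 2.59, 1.42 and 2.48 CPM against 23, 19.1 and 22.1 CPM (-3.23 ± 0.21), with a mimic difference of -1.14 ± 0.28 (adjusted p = 0.0115; 0.224 with limma voom). E2F1, which RB1 binds, was at 203, 199 and 201 CPM against 49.5, 46.4 and 45.6 CPM (2.09 ± 0.05). Of 38 DNA replication genes 19 were lower and 11 higher (median -0.682), and 7 and 10 with GC and length offsets (median -0.015). PCNA, the sliding clamp, was lower (-2.76 ± 0.17), and MCM5 of the replicative helicase was higher (1.69 ± 0.09). Of 40 mitosis genes 22 were lower and 10 higher (median -0.682), and 12 and 14 with GC and length offsets (median 0.0711), with BUB3 of the spindle checkpoint at -2.22 ± 0.07 and CDC20 and CENPE at 1.67 ± 0.05 and 2.28 ± 0.09.

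Chaperone genes were lower in 19 of 28 (5 higher, median -0.856). Beside the counts of this paragraph, 35.2% of all genes were lower and 30.6% higher, with a median of -0.164. HSP90AA1, inducible HSP90, was an exception at 4389.9, 4419 and 4992 CPM against 622, 645 and 636 CPM (2.86 ± 0.05), with a mimic difference of 0.01 ± 0.06 (adjusted p = 0.933). HSPA8, the constitutive HSP70, was at 38.9, 37.5 and 38.9 CPM against 216, 220.0 and 216 CPM (-2.49 ± 0.08). Of 39 cytoskeletal genes 20 were lower and 12 higher. TPM2, a tropomyosin, was higher by 2.89 ± 0.04, CALD1, caldesmon, by 2.24 ± 0.05 and TUBA1C by 1.93 ± 0.05, while vimentin, VIM, was lower by -1.09 ± 0.03. Glycolysis genes were 8 higher and 11 lower of 24 (median 0.0100, -0.236 under library-total scaling and -0.499 with a GC offset), with SLC16A3, a lactate exporter, at 1.89 ± 0.04 and LDHA at -1.84 ± 0.04. The median of all genes was -0.408 under library-total scaling and 0.0113 with a GC offset. Of 21 histone genes 2 were higher and 5 lower, and most such messages lack a poly(A) tail. Of the 15 mesothelial markers tested 5 were higher and 6 lower, with a median of -0.178. Among the higher ones were MSLN (2.31 ± 0.06), KRT19 (1.18 ± 0.04) and KRT8 (1.12 ± 0.03).

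The pull-down difference at 72 h was set against that at 12 h with the same mimic, in a fit over the 12 libraries of miR-497-5p. Of 17424 genes, 3603 had a more positive difference at 72 h (20.7%) and 4353 a more negative one (25%), 45.7% together. At 12 h, 3589 genes were higher (20.6%) and 3132 lower (18%), 38.6% together, and 1426 (8.18%) and 938 (5.38%) at least 2-fold. The change from 12 h was at least 2-fold for 2273 (13%) and 3096 (17.8%). With GC and length offsets 4340 genes were more positive and 2332 more negative at 72 h. Fibronectin, FN1, changed sides: at 12 h it was at 695, 697 and 676 CPM in the pull-down against 223, 222 and 236 CPM, and the change was -4.12 ± 0.09 (adjusted p = 1.12e-14). PABPC1 changed the other way, from 2249, 1583 and 1949.9 CPM against 5516, 5541 and 5578 CPM at 12 h, by 2.95 ± 0.12 (adjusted p = 5.52e-12). ITGAV stood at 24.8, 33.5 and 37.1 CPM against 29.3, 30.5 and 31.2 CPM at 12 h, where it overlapped, and changed by -4.40 ± 0.26 (adjusted p = 3.44e-10). TOP2A was already higher at 12 h, at 239, 240.3 and 274 CPM against 119.6, 128 and 128 CPM, and changed by a further 3.14 ± 0.10 (adjusted p = 3.94e-13). Ribosomal protein genes had a more negative difference at 72 h in 68 of 79 and a more positive one in 5. All 13 mitochondrial messages had a more negative one. CCNE1 (-0.28 ± 0.20, adjusted p = 0.287), CDK6 (-0.57 ± 0.23, adjusted p = 0.0578) and ARL2 (-0.05 ± 0.17, adjusted p = 0.855) had no called change between the times. Of the 39 published targets 13 had a more positive difference at 72 h and 15 a more negative one. Among them CCND1 changed by 1.02 ± 0.09 (adjusted p = 5.4e-08), E2F3 by 0.90 ± 0.20 (adjusted p = 0.00102) and CDC25A by 0.78 ± 0.28 (adjusted p = 0.033). The effector gene TNRC6B changed by 2.07 ± 0.20 (adjusted p = 2.12e-07). CDK4 changed by -1.39 ± 0.17 (adjusted p = 3.68e-06) and WEE1 by -1.65 ± 0.39 (adjusted p = 0.00214), WEE1 having been higher in the pull-down at 12 h by 1.12 ± 0.26 (adjusted p = 0.00221).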

How the data were processed

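Per the submitters' processing notes, Trimmomatic 0.36 trimmed the reads, STAR 2.5.2b placed them on GRCh38 and featureCounts of Subread 1.5.2 counted them; the design text adds that uniquely placed reads in exons were kept. The authors deposited whole-number counts per gene, 57500 identifiers per library, with no normalized values. GENCODE release 44 gave 56410 of them a symbol.

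edgeR 4.0.16, run in R 4.3.3, was applied to the counts of the 12 libraries at 72 h (TMM, default filter on low counts, robust quasi-likelihood test, Benjamini-Hochberg over all genes, threshold 0.05), and the 12 libraries with miR-497-5p in a further fit. CPM, SD and means came from these fits. Seed sites were searched on the transcript strand, in the longest 3′ UTR that GENCODE gives a coding gene. CPM at 12 h are scaled in the second fit.

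The members and the 24 gene lists were chosen with earlier results of these data known. Genes named are the 6 of the series' title and design, the 10 largest pull-down differences in each direction, up to 4 members per list by smallest adjusted p, and the 6 largest in each direction of both contrasts of contrasts; the largest were taken among called genes that averaged 5 CPM or more and had no overlap between groups. This gave 130 genes, of which the text describes most; further list members are named where they mark a list's extremes or a called mimic difference, after their values were seen. Of these, 1 is not reported here, and the others entered the alternatives.

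Alternatives were DESeq2 1.42.0 size factors or Wald test, library totals, 2 other filters, limma 3.58.1 voom, a replicate block, length offsets, only the 6 libraries, and each library left out. Offsets for GC content were added after seeing the data. On simulated counts the pull-down difference recovered 30% of 2-fold and 83% of 4-fold changes, with 2 unchanged genes called of 16285 tested, and the mimic difference 11% and 55%, with 1. The simulation gave every gene of an assay the same coefficient of variation and changed 200 genes. In the data far more genes were called, so these figures need not hold there.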

Additional observations from a re-analysis of the deposited data

Results flagged for a closer look

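The results here are those whose pull-down difference differed between the mimics or between the times by a test of that difference itself (edgeR's quasi-likelihood test, Benjamini-Hochberg adjusted p under 0.05 over all genes). They are log2 values, and no explanation was tested.

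Between 72 h and 12 h with miR-497-5p, the pull-down difference of FN1 changed by -4.12, of ITGAV by -4.40, of CD24 by -4.57, of PPIAP22 by -4.83, of CLSTN2 by -6.32, of ARMT1 by -4.04 and of RPS13 by -2.76. It changed by 3.14 for TOP2A, 3.12 for RBM25, 2.95 for PABPC1, 4.71 for SRXN1, 4.92 for NBPF26, 4.90 for NBPF8 and 6.75 for NSRP1P1. HBB stood at 12.74, and its RNA-seq at 12 h was at 4.89, 383 and 0.613 CPM, so 1 library stands apart. The call of HBB was lost with limma voom (adjusted p = 0.702) and without any 1 of 9 libraries (adjusted p = 0.0503 to 0.0794), and it stood at 7.35 without replicate 2 of the 12 h RNA-seq, with the call kept.

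Between the mimics at 72 h, cell cycle and published target genes had mimic differences of 1.70 (CCNE1), 1.11 (E2F3), 1.05 (CDK6), 1.01 (CDC25A), 0.86 (CDK4), 0.54 (CCND1), 0.36 (ARL2), 0.32 (E2F1), 0.92 (TOP2A), 0.44 (CENPE), 0.45 (MCM5), -0.71 (PCNA), -1.14 (RB1) and -0.38 (CAPRIN1). MicroRNA effectors had 0.35 (TNRC6A), 0.68 (TNRC6B) and -0.59 (DDX6). Noncoding and splicing genes had 1.27 (MALAT1), 0.63 (NEAT1), 0.39 (MEG3), 0.47 (SNHG29), -0.44 (ZFAS1), 0.76 (PNISR) and -0.34 (SRSF11).

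Mitochondrial messages had 0.16 (MT-CO2), -0.23 (MT-CO1), -0.24 (MT-ND4) and -0.45 (MT-ND1), and respiratory chain genes -0.26 (ATP5F1D), -0.67 (ATP5ME) and -0.88 (NDUFA3). Ribosome and translation genes had -0.61 (RPL12), -0.48 (RPS13), -0.39 (RPL26), 0.30 (RPL7), -0.51 (EIF2S2), 0.32 (EEF1A1) and 0.62 (PABPC1). Membrane, matrix and early response genes had -0.97 (ITGAV), -0.55 (ITGB1), -0.29 (CD44), -0.50 (LOX), 0.42 (COL6A2) and -0.39 (CCN1).

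Metabolic, chaperone, keratin and cytoskeletal genes had 0.39 (SLC16A3), -0.38 (LDHA), -0.26 (GAPDH), 0.61 (HSPA8), 0.21 (TPM2), -0.16 (VIM), 0.40 (TUBA1C), 1.99 (TUBA1B), -0.56 (KRT18), -0.39 (KRT10) and -0.60 (SBSN). Among the genes with the largest differences were 2.33 (SLC35G1), 2.12 (HSPG2), 2.12 (MAFK), 2.12 (SYNC), 1.94 (PKD1P6), 1.14 (PCBP1), 0.66 (RABL6), -2.63 (ARMT1), -2.20 (CSTF3), -2.17 (ZNF597), -1.85 (MRPS18C), -1.82 (YEATS4), -1.81 (ACOT13), -1.80 (PIN4) and -1.72 (PPIAP22).

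Several of these calls between the mimics were lost under other settings. Under library-total scaling VIM was at -0.02 (adjusted p = 0.779), MT-CO1 at -0.09 (0.226), MT-ND4 at -0.10 (0.275), CD44 at -0.16 (0.13), KRT10 at -0.25 (0.193), CCN1 at -0.26 (0.0732), ITGB1 at -0.42 (0.113), SBSN at -0.46 (0.104) and PCNA at -0.58 (0.0872). With limma voom the lost calls included ITGAV (adjusted p = 0.347), MT-CO2 (0.503), MT-CO1 (0.162), MT-ND4 (0.294), RB1 (0.224), PCNA (0.0504), ARMT1 (0.117) and PPIAP22 (0.154). With a GC offset VIM was at -0.08 (adjusted p = 0.105), CD44 at -0.16 (0.145), ITGB1 at -0.38 (0.157), MCM5 at 0.38 (0.0567) and ITGAV at -0.77 (0.051), and with GC and length offsets MT-CO1 was at -0.02 (0.837). With the replicate block MCM5 (adjusted p = 0.0833) and SBSN (0.0906) were lost, and with the block and a GC offset E2F1 (0.0876). Leaving out 1 library ended the call of KRT10 for 10 libraries, PCNA for 9 (-0.41 without pull-down replicate 1 with miR-497-5p), ITGB1 for 7, SBSN for 6, MCM5 for 5, CENPE for 4 (adjusted p = 0.0589 to 0.0933), MEG3 for 1 (0.0532 without control RNA-seq replicate 3) and PPIAP22 for 1 (-1.36, adjusted p = 0.0616, without pull-down replicate 1 with miR-497-5p).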

How the results depend on the processing

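Counts of called genes stayed within 1.5 times under the other settings except these: with GC and length offsets 3550 genes were lower in the pull-down, and 2332 more negative at 72 h than at 12 h (2744 with the replicate block and a GC offset), and under library totals 2085 and 747 genes had a positive and a negative mimic difference. Leaving out 1 library gave 4674 to 5320 genes higher and 5557 to 6359 lower in the pull-down, 910 to 1523 and 817 to 1364 for the mimic difference, and 3124 to 3671 and 3800 to 4776 for the change from 12 h. Same-numbered pull-down and RNA-seq libraries with miR-497-5p at 72 h deviated together at 0.0289, 0.0118 and -0.0261. At 12 h same-numbered libraries were at 0.183, -0.00917 and 0.107, and differently numbered ones between -0.226 and 0.178. The RNA-seq libraries at 72 h varied little, so these values cannot tell whether the numbers pair libraries. With the replicate block 4762 genes were higher and 5689 lower. Of 70 mimic differences, 12 lost their call under library totals, 13 with voom, 9 with a GC offset and 63 of 840 values computed without 1 library did too. GC offsets were chosen after seeing the data. The cause of each change was not tested. Depth of pull-down replicate 2 limits low genes most.

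Directions turned for these pull-down differences. WEE1 was at 0.58 (GC offset), 0.45 (replicate block with GC) and 0.78 (GC and length), and ACOT13 at 0.52, 0.51 and 0.76 in the same order. The 0.78 of WEE1 passed in edgeR's test (adjusted p = 0.0422), as did these values of ACOT13 (adjusted p = 0.000626 to 0.0222). TK1 was at -0.10 and -0.10 and SBSN at -0.09 and -0.10 with the GC offset, without and with the block. With GC and length offsets DDX6 was at 0.03, and the mimic difference of MT-ND4 at 0.01. PKMYT1 was at 0.06 (DESeq2 size factors), 0.08 (DESeq2), 0.19 (block with length), 0.21 (length) and 0.06 (only the 6 libraries), and ran from -0.37 to 0.30 without 1 library. SLC35G1 was at -0.11 under library totals and ran from -0.13 to 0.22 without 1 library, and VEGFA from -0.01 to 0.62. Metazoa_SRP was at -1.17 (voom), -0.71 (replicate block), -0.73 (block with length) and -0.93 (block with GC), and ran from -1.90 to 0.89. CD14 was at -0.75, -0.87, -0.69 and -1.50 under the same settings, and ran from -5.34 to 1.63. The gap in median mimic difference between genes with and without sites was -0.02 among the shortest 3′ UTRs.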
